A study of Mus musculus with 6 samples.

Results

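The genes described here are 34 genes of blood vessels, lymphatic vessels and pericytes, named as a fixed list and matched by symbol to 1 Ensembl identifier each, out of 57180 identifiers in the tables. They comprise 20 genes of blood endothelium, 4 of lymphatic endothelium, 7 of pericytes and 3 secreted ligands that act on vessels. Of the 34, 31 passed the filter on low counts and were tested among 17639 genes, and Sox17, Aplnr and Mmrn1 did not pass. RNA was sequenced from the corneal endothelium of mice, the single cell layer that lines the back of the cornea. The Tcf4+/- group (3 libraries) carries the labelled genotype Col8a2Q455K/Q455K/Tcf4+/-, a heterozygous knockout of the transcription factor gene Tcf4 on a mutant background. The Col8a2 group (3 libraries) carries Col8a2Q455K/Q455K alone, so both groups are homozygous for the Col8a2 mutation, which is used to model Fuchs endothelial corneal dystrophy. Neither age nor strain is given in the labels used here, and they do not say whether a library holds 1 animal or several, so p-values measure only the spread between these samples.

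The cornea is normally free of blood and lymphatic vessels, and its neighbours, the iris, the ciliary body and the limbus, are richly supplied with them. Vascular endothelial cells are held together by VE-cadherin (Cdh5), claudin-5 (Cldn5) and PECAM-1, and receive VEGF through the receptors encoded by Kdr, Flt1 and Flt4. Angiopoietins bind the receptor encoded by Tek: angiopoietin-1 activates it, and angiopoietin-2 is mostly known as its context-dependent antagonist. Pericytes sit on capillaries and respond to PDGF through Pdgfrb. Several members are also made outside vessels, such as Pdpn, Cd34 and Pdgfrb in stromal cells, so a transcript in this tissue does not by itself mark a vessel.

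The libraries were not alike. Total estimated counts were 47942728, 54265433 and 30344114 in Tcf4+/- replicates 1 to 3 and 48418722, 46644722 and 51302355 in Col8a2 replicates 1 to 3. Tcf4 itself stood at 440.4, 599 and 373 CPM (counts scaled to library size with TMM) in the Tcf4+/- libraries and at 313, 469.6 and 430.2 CPM in the Col8a2 libraries, so the libraries labelled Tcf4+/- were not lower in Tcf4 (log2 fold change 0.22, 95% interval from -0.52 to 0.96). Where a direction is given below, it is for these labels. The labels do not say which part of Tcf4 is removed, so reads outside that part cannot be told apart from those of an intact allele. The 12 markers of corneal endothelium summed to between 12401 and 22900 CPM in the Tcf4+/- libraries and between 15305 and 22796 CPM in the Col8a2 libraries, and all 12 reached 10 CPM in every library. Lens markers summed to 4068 and 10781 CPM in Tcf4+/- replicates 2 and 3 and to 33.9 to 613 CPM in the other libraries. Without these 2 libraries, the Tcf4+/- group holds 1 library.

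Transcripts of vessels were present in every library at low to moderate level. Per length of transcript, Pdpn (median 109 TPM over the 6 libraries, a length-corrected level), Angpt2 (67.6 TPM) and Egfl7 (58.1 TPM) led, followed by Ramp2 (27.6 TPM) and Cd34 (24.9 TPM). Pdgfrb, Erg and Cldn5 stood next at 14.9, 14.6 and 14.4 TPM, and their ranges over libraries overlapped (8.32 to 20.2, 12.4 to 18.6 and 1.60 to 37.2 TPM), so their order is not firm. Genes of vascular endothelium were spread widely in level. Below Cldn5, Plvap, Emcn (8.8 TPM) and Vwf (7.61 TPM) came next among the blood endothelium members. Pecam1, Tie1 and Cdh5 were lower, with medians of 1.39, 1.20 and 1.06 TPM, and Robo4 was lower still at 0.575 TPM. At the low end, Lyve1, Mmrn1, Sox17 and Aplnr had medians from 0 to 0.07 TPM.

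Only 7 of the 34 members reached 10 CPM in all 6 libraries, a level chosen after the values were seen: Angpt2, Pdpn, Pdgfrb, Cd34, Erg, Kdr and Egfl7. The promoters of Kdr and Pdpn, from these 7, and of Cldn5 and Tie1, which were highest in Tcf4+/- replicate 2 and lowest in Col8a2 replicate 3, are shown to set a steadier and a more variable pair side by side. They are RefSeq windows of build GRCm38.p6 from 250 bases before to 50 bases after the annotated start, 5′ to 3′ on the gene's strand, with every E-box (CANNTG, the kind of site that E proteins such as the product of Tcf4 bind) and every ETS core (CCGGAA or TTCCGG, the core bound by factors such as the product of Erg) in capitals. The windows are Kdr at chr5:75978406-75978705 on the minus strand, Pdpn at chr4:143299515-143299814 on the minus strand, Cldn5 at chr16:18776597-18776896 on the plus strand and Tie1 at chr4:118489800-118490099 on the minus strand.
Kdr: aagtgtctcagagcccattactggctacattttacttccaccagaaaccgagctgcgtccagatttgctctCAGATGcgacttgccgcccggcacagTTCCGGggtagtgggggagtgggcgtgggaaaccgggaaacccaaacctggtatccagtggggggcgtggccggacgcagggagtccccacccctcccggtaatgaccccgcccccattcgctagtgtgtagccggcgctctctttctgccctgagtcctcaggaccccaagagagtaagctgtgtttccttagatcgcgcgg
Pdpn: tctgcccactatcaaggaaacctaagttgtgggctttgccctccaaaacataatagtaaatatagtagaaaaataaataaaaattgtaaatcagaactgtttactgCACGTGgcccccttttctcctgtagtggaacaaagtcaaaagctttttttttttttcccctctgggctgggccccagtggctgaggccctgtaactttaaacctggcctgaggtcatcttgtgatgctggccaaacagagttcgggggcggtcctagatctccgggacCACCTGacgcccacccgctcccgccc
Cldn5: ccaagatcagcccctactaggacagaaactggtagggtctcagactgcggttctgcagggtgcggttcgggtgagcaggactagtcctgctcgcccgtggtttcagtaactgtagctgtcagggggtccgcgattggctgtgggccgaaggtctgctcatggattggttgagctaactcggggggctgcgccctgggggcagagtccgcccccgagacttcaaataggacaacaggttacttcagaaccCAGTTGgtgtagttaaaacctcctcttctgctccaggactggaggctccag
Tie1: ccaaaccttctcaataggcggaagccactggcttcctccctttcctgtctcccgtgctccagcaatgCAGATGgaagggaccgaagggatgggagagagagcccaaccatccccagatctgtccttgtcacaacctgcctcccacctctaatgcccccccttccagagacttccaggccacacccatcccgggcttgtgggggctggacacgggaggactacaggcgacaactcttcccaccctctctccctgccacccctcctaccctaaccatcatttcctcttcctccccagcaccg

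Each of these 4 windows holds an E-box, and among them CCGGAA or TTCCGG was found in the window of Kdr only. Other and shorter forms of the ETS site were not searched. Windows were found for 19 of the 34 members, 23 in all. An E-box of any kind was in 69.6% of the members' windows and in 72.3% of all 32851 windows, and the form CAGGTG or CACCTG in 17.4% and 20.2%. The form CCGGAA or TTCCGG was in 1 of the 23 windows, or 4.35%, against 14.9% of all windows. Both strands were searched, and an E-box reads the same in kind on either strand. These are letters in a short window and say nothing of binding.

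**Figure D1:**
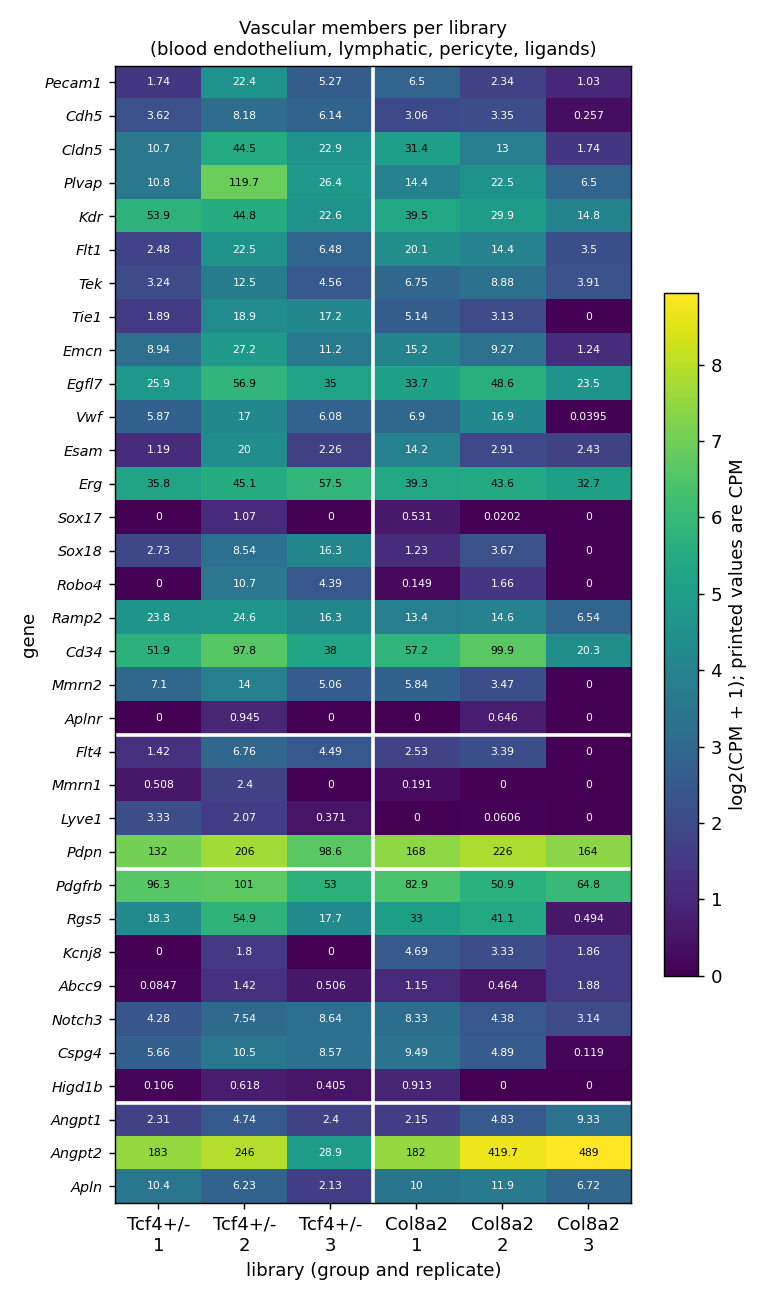
Level of each member (rows, in the blocks blood endothelium, lymphatic, pericyte and ligands) in each library (columns, Tcf4+/- replicates left of Col8a2 replicates), coloured by log2(CPM + 1) with CPM printed in each cell. Most blood endothelium rows are brightest in Tcf4+/- replicate 2 and darkest in Col8a2 replicate 3, and Angpt2 runs from 28.9 CPM in Tcf4+/- replicate 3 to 489 CPM in Col8a2 replicate 3.

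Many vessel genes were highest in 1 Tcf4+/- library, and many were lowest in 1 Col8a2 library. Of the 31 members tested, 18 were highest in Tcf4+/- replicate 2, or 58.1%, against 13.8% of all genes tested, and 21 were lowest in Col8a2 replicate 3, or 67.7%, against 19.0%. Among the 18 blood endothelium members tested, 14 were highest in Tcf4+/- replicate 2 and 15 lowest in Col8a2 replicate 3. Col8a2 replicate 3 had 0 counts for 10 of the 34 members, among them Tie1, Sox18, Robo4, Mmrn2 and Flt4. With 51302355 counts, 0 counts there allows up to 0.0593 CPM (3 counts), for counting error only. Tcf4+/- replicate 2 had 0 counts for none of the 34, and the other libraries had 0 counts for 2 to 4 of them.

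The 20 blood endothelium members summed to 252, 617 and 304 CPM in the Tcf4+/- libraries and to 315, 343 and 118 CPM in the Col8a2 libraries. The mean was 391 ± 198 CPM in the Tcf4+/- group and 259 ± 122 CPM in the Col8a2 group (SD, n = 3 each), and the groups overlapped, since Tcf4+/- replicates 1 and 3 lay below Col8a2 replicates 1 and 2. The sum in the highest library was 5.21 times that in the lowest. The 7 pericyte members summed to 125, 177 and 88.8 CPM in the Tcf4+/- libraries and 140.5, 105 and 72.3 CPM in the Col8a2 libraries. Their sum had the same highest and lowest library, but single pericyte genes did so less uniformly: 3 of 7 were highest in Tcf4+/- replicate 2 (Pdgfrb, Rgs5 and Cspg4) and 4 of 7 lowest in Col8a2 replicate 3, ties at 0 included. All 34 members together summed to 709, 1268 and 529 CPM in the Tcf4+/- libraries and 819.7, 1113 and 859.8 CPM in the Col8a2 libraries. That sum was thus lowest in Tcf4+/- replicate 3, not in Col8a2 replicate 3. Angpt2 alone stood at 28.9 CPM in the former and 489 CPM in the latter. In such bulk samples, fewer cells of a type and less RNA per cell cannot be told apart.

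Markers of other cells of the cornea and of the tissues around it moved with the vessel genes in part. The corneal endothelium markers also summed highest in Tcf4+/- replicate 2, at 22900.1 CPM, with 6 of 12 highest there. Their sum was 22796 CPM in Col8a2 replicate 3, the library with the lowest sum of blood endothelium members. The 6 melanocyte markers summed to 585, 1509 and 731 CPM in the Tcf4+/- libraries and 1061, 1148 and 343 CPM in the Col8a2 libraries. Their highest and lowest library were the same as for the summed blood endothelium members. The 5 outflow tissue markers (range 647 to 1908 CPM in the Tcf4+/- group and 539 to 1683 CPM in the Col8a2 group), the 6 keratocyte markers (11692 to 17766 and 8202 to 15989 CPM) and the 6 Schwann cell markers (247 to 354 and 193 to 288 CPM) were also highest in Tcf4+/- replicate 2 and lowest in Col8a2 replicate 3. This order is that of the sums, and single genes shared it less uniformly. Of the melanocyte, outflow, keratocyte and Schwann markers tested, 5 of 6, 2 of 4, 3 of 6 and 2 of 6 were highest in Tcf4+/- replicate 2. Lowest in Col8a2 replicate 3 were 4 of 6, 4 of 4, 4 of 6 and 2 of 6. Of all genes tested, 13.8% and 19.0% were so placed. Rspo4 of the outflow list was at 0 or, in 1 library, 0.0182 CPM. The part of these cells in the vessel signal was not tested.

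Among blood cells, erythroid markers had another order of libraries, and leukocyte and platelet markers shared the low library in part. Erythroid markers summed to 6128, 1362 and 2943 CPM in the Tcf4+/- libraries and 1296, 533 and 1968 CPM in the Col8a2 libraries, highest in Tcf4+/- replicate 1 and lowest in Col8a2 replicate 2. The 8 leukocyte markers ran from 322 to 599 CPM in the Tcf4+/- group and from 219 to 868 CPM in the Col8a2 group. They were highest in Col8a2 replicate 2 but lowest in Col8a2 replicate 3, where 6 of the 8 had their lowest value, as most blood endothelium members did. Platelet markers, which matter because platelets also carry Vwf, Pecam1 and Mmrn1, summed to 17.0 to 31.0 CPM in the Tcf4+/- group and 20.1 to 42.6 CPM in the Col8a2 group. The highest sum, in Col8a2 replicate 3, came mostly from Ppbp at 34.6 CPM, whereas Itga2b and Gp1bb were lowest there, and Treml1 was at or near 0 throughout. The part of leukocytes and platelets in the vessel values was not tested. The 6 markers of the corneal epithelium summed to 7198, 2351 and 5161 CPM in the Tcf4+/- libraries, lowest in Tcf4+/- replicate 2. In the Col8a2 libraries they summed to 6910.5, 3149 and 4184 CPM, so epithelial transcripts were present in every library.

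**Figure D2:**
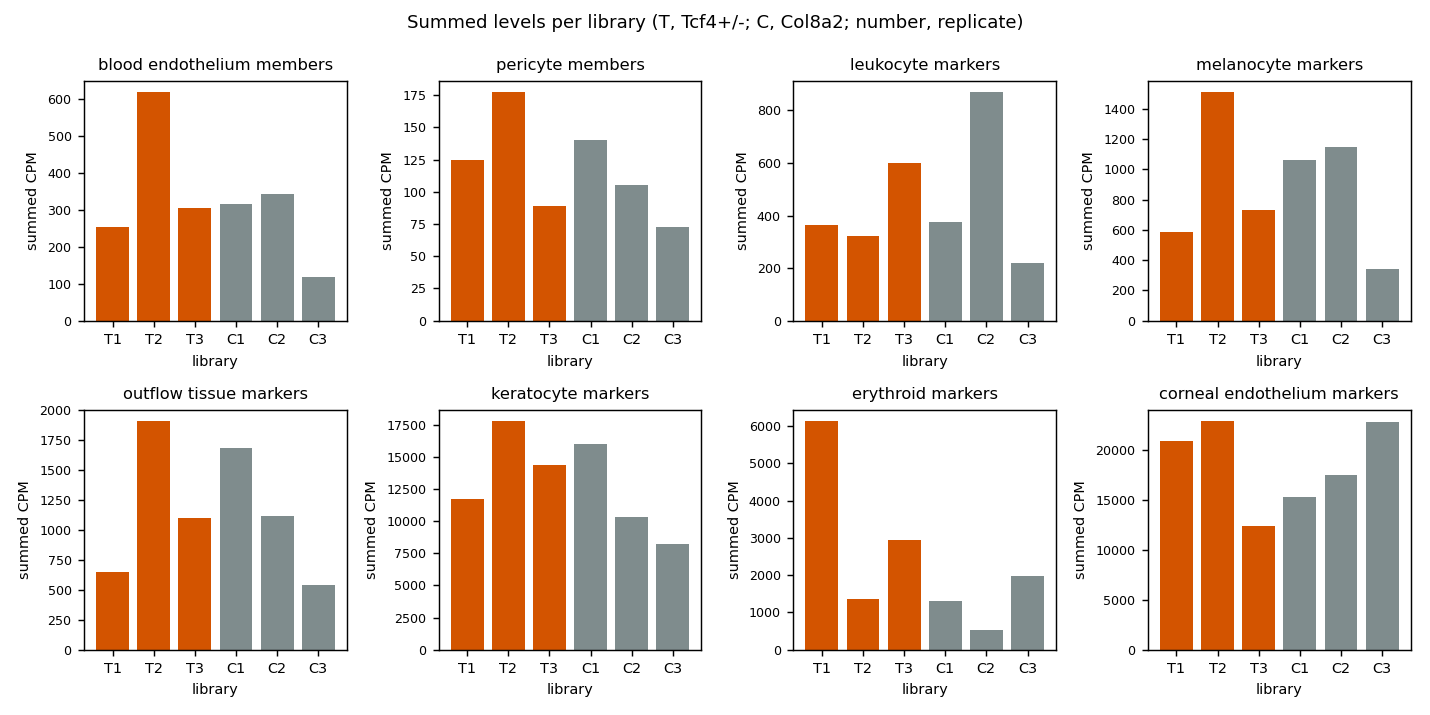
Summed CPM per library for groups of members and for marker lists of other cells, with Tcf4+/- replicates (T1 to T3, orange) left of Col8a2 replicates (C1 to C3, grey); each bar is 1 library and starts at 0. The blood endothelium members sum to 617 CPM in T2 and 118 CPM in C3, and the melanocyte markers have the same highest and lowest library, whereas erythroid markers peak in T1 at 6128 CPM.

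Between the genotypes, no member passed the test. With the quasi-likelihood test of edgeR and Benjamini-Hochberg adjustment over all 17639 genes, 0 of 31 members were called, against 0% of all genes, and every member had an adjusted p of 0.9999. At an unadjusted p under 0.05 there were 2 members, Plvap and Lyve1, or 6.45% of those tested, where 2.42% of all genes tested lay. Lyve1 passed the filter on low counts through its Tcf4+/- libraries alone, so its place in this count gives no support. The fitted direction was higher in 24 and lower in 7, with a median log2 fold change (Tcf4+/- over Col8a2) of 0.33, beside 0.00 over all genes tested. By list the median was 0.82 over 18 blood endothelium members (17 fitted higher), 1.10 over 3 lymphatic, 0.31 over 7 pericyte and -0.79 over 3 ligand genes, with a median standard error of 0.85 over the members.

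These medians changed with single libraries. With 1 library left out, the median over the members ran from 0.14 (without Tcf4+/- replicate 2) to 0.86 (without Col8a2 replicate 1), and was -0.45 without both Tcf4+/- libraries of high lens markers. The blood endothelium median was 0.27 without Tcf4+/- replicate 2, 0.30 without Col8a2 replicate 3 and 1.57 without Col8a2 replicate 1, and was -0.44 without both Tcf4+/- libraries of high lens markers. For pericyte genes the median was -0.24 without Tcf4+/- replicate 2, -0.27 without Col8a2 replicate 3 and -0.45 without both lens-rich libraries, and reached 0.55 without Tcf4+/- replicate 1.

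**Figure D3:**
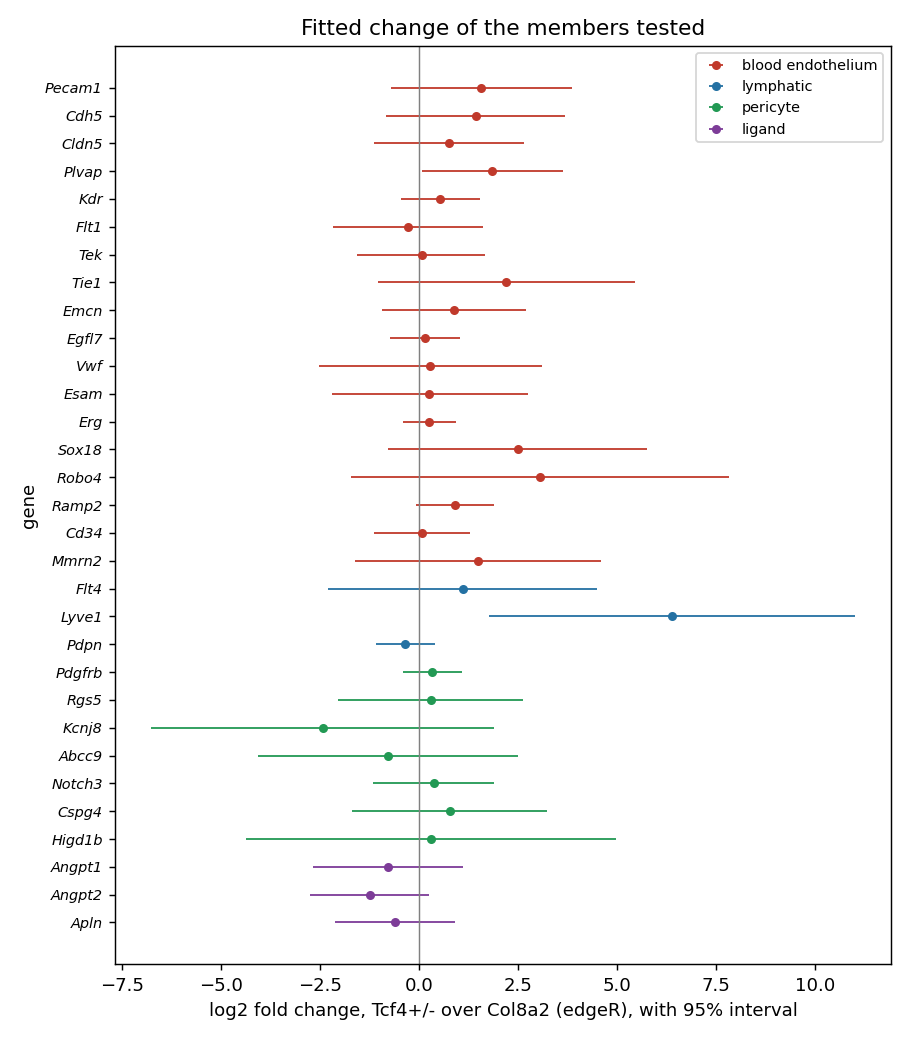
Fitted log2 fold change (Tcf4+/- over Col8a2, horizontal axis) of the 31 members tested, with 95% intervals from the edgeR fit, coloured by list. The intervals of all but Plvap and Lyve1 include 0, and none passed after adjustment; the 3 ligands, Flt1, Pdpn, Kcnj8 and Abcc9 lie on the lower side and 17 of 18 blood endothelium genes on the higher side.

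Among the receptors, the VEGF receptors differed in which library was highest. Kdr, which encodes VEGF receptor 2, the main signalling receptor of blood endothelium, stood at 53.9, 44.8 and 22.6 CPM in the Tcf4+/- libraries and 39.5, 29.9 and 14.8 CPM in the Col8a2 libraries. Its groups overlapped, and its log2 fold change was 0.53 with a standard error of 0.45 (edgeR adjusted p = 0.9999). Flt1, whose product is VEGF receptor 1 and largely acts as a decoy, stood at 2.48, 22.5 and 6.48 CPM in the Tcf4+/- libraries and 20.1, 14.4 and 3.50 CPM in the Col8a2 libraries. Kdr was highest in Tcf4+/- replicate 1, the library in which Flt1 was lowest. On the TPM scale Kdr was 23.8 times Flt1 in that library, and 1.86 and 3.95 times Flt1 in the other Tcf4+/- libraries and 2.17, 2.38 and 4.48 times in the Col8a2 libraries.

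The angiopoietin receptor gene Tek showed no separation, with 3.24, 12.5 and 4.56 CPM in the Tcf4+/- libraries and 6.75, 8.88 and 3.91 CPM in the Col8a2 libraries (log2 fold change 0.06 ± 0.72 SE). Tie1, an orphan partner of that receptor, varied more, from 1.89 to 18.9 CPM in the Tcf4+/- group and from 0 to 5.14 CPM in the Col8a2 group. Its log2 fold change of 2.20 had a standard error of 1.45, and Tcf4+/- replicate 1 lay below Col8a2 replicates 1 and 2. Robo4, an endothelial roundabout receptor, was at 0, 10.7 and 4.39 CPM in the Tcf4+/- libraries and at 0.149, 1.66 and 0 CPM in the Col8a2 libraries, so that 0 occurred in both groups. Aplnr, the apelin receptor, was detected in 1 library of each group, at 0.945 CPM in Tcf4+/- replicate 2 and 0.646 CPM in Col8a2 replicate 2, and was not tested.

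Ramp2 (ENSMUSG00000001240), which encodes the accessory protein that makes the calcitonin receptor-like receptor respond to adrenomedullin, was one of the few members whose groups did not overlap. It stood at 23.8, 24.6 and 16.3 CPM in the Tcf4+/- libraries and at 13.4, 14.6 and 6.54 CPM in the Col8a2 libraries. All Tcf4+/- libraries lay above all Col8a2 libraries, with a mean of 21.6 ± 4.57 CPM against 11.5 ± 4.34 CPM (SD, n = 3 each). Its log2 fold change was 0.91 with a 95% interval from -0.09 to 1.90, and it did not pass (edgeR adjusted p = 0.9999). Exons of Ramp2 overlap those of Vps25 on the same strand in the GENCODE M21 annotation, so the authors' counting could split reads between both, and Egfl7 likewise shares exons with Gm20532. Exons of Agpat2 and Mir126b overlap Egfl7 on the other strand, as antisense genes overlap Cd34, Abcc9, Notch3, Angpt1 and Sox17, and the strand setting of the counting was not stated. In all, 3 of 31 members lay higher without overlap (Ramp2, Cdh5 and Lyve1), or 9.68%, where 4.53% of all genes tested did. Of the same 31, 1 lay lower (Kcnj8), or 3.23%, where 3.57% did. Lyve1 passed the filter on low counts through its Tcf4+/- libraries alone, so its lack of overlap was set by the filter and gives no support.

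All 3 ligands were fitted lower, as were Flt1, Pdpn, Kcnj8 and Abcc9 among the other members. Angpt2 (ENSMUSG00000031465), angiopoietin-2, was second only to Pdpn in median TPM and stood at 183, 246 and 28.9 CPM in the Tcf4+/- libraries and 182, 419.7 and 489 CPM in the Col8a2 libraries. The groups overlapped, because Col8a2 replicate 1 lay below Tcf4+/- replicates 1 and 2. The mean was 153 ± 112 CPM in the Tcf4+/- group and 363 ± 161 CPM in the Col8a2 group (SD, n = 3 each). The log2 fold change was -1.25 with a 95% interval from -2.75 to 0.24. Its lowest library, Tcf4+/- replicate 3, was also the lowest for the summed corneal endothelium markers, at 12401 CPM, and held the most lens transcripts. Without that library the log2 fold change of Angpt2 was -0.77. A link between these values was not tested. In Col8a2 replicate 3, where most blood endothelium members were at their lowest, Angpt2 was at its highest.

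Angpt1, angiopoietin-1, stood at 2.31, 4.74 and 2.40 CPM in the Tcf4+/- libraries and 2.15, 4.83 and 9.33 CPM in the Col8a2 libraries. The 2 angiopoietins thus stood far apart: on the TPM scale Angpt2 was 96.6, 63.3 and 13.2 times Angpt1 in the Tcf4+/- libraries and 103, 106 and 63.4 times in the Col8a2 libraries. Apln, which encodes apelin, stood at 10.4, 6.23 and 2.13 CPM in the Tcf4+/- libraries and 10, 11.9 and 6.72 CPM in the Col8a2 libraries. It was lowest in Tcf4+/- replicate 3, as Angpt2 was, and its log2 fold change was -0.61 with a standard error of 0.68.

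**Figure D4:**
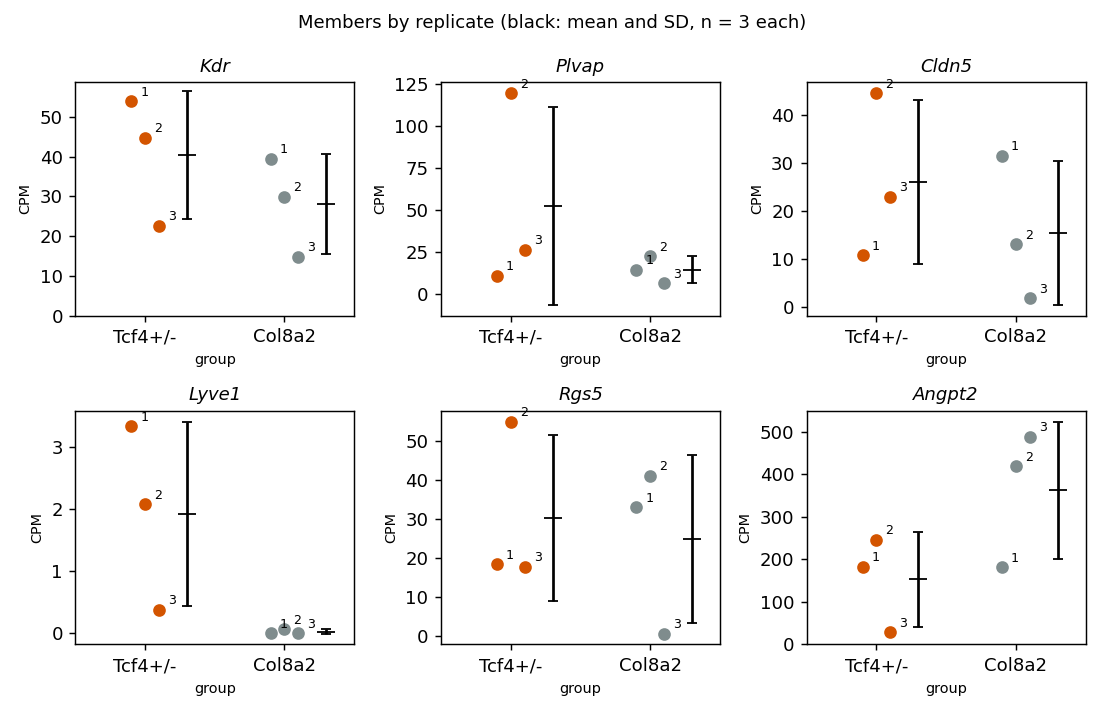
CPM of Kdr, Plvap, Cldn5, Lyve1, Rgs5 and Angpt2 in each library (points, numbered by replicate), with the Tcf4+/- group left of the Col8a2 group and the mean ± SD in black (n = 3 each). Lyve1 alone among these 6 has groups that do not overlap, at 0.371 to 3.33 CPM in the Tcf4+/- group and 0 to 0.0606 CPM in the Col8a2 group. It passed the filter on low counts through the Tcf4+/- group alone, so that lack of overlap was set by the filter.

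Genes of junctions and of the vessel surface varied widely between libraries of 1 genotype. Plvap (ENSMUSG00000034845), which forms the diaphragms of fenestrated endothelium, stood at 10.8, 119.7 and 26.4 CPM in the Tcf4+/- libraries and 14.4, 22.5 and 6.50 CPM in the Col8a2 libraries. Tcf4+/- replicate 2 lay above every other library, while Tcf4+/- replicate 1 lay below Col8a2 replicates 1 and 2. Its log2 fold change of 1.85 (standard error 0.80) had an unadjusted p of 0.043 in edgeR and an adjusted p of 0.9999, and was 0.38 without Tcf4+/- replicate 2 and -0.43 without both lens-rich libraries. Cldn5 stood at 10.7, 44.5 and 22.9 CPM in the Tcf4+/- libraries and 31.4, 13.0 and 1.74 CPM in the Col8a2 libraries, and its log2 fold change of 0.76 was smaller than its standard error of 0.85.

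Cdh5, VE-cadherin, was at 3.62, 8.18 and 6.14 CPM in the Tcf4+/- libraries and 3.06, 3.35 and 0.257 CPM in the Col8a2 libraries. Its groups did not overlap, but the gap between 3.62 and 3.35 CPM was narrow and the 95% interval of its log2 fold change ran from -0.83 to 3.69. Pecam1, a homophilic adhesion molecule also made by platelets and leukocytes, stood at 1.74, 22.4 and 5.27 CPM in the Tcf4+/- libraries and 6.50, 2.34 and 1.03 CPM in the Col8a2 libraries. Esam, an adhesion molecule of endothelial tight junctions, was highest at 20.0 CPM in Tcf4+/- replicate 2 and lowest at 1.19 CPM in Tcf4+/- replicate 1, with the Col8a2 libraries between 2.43 and 14.2 CPM. Its fitted sign changed with the library left out, from -1.90 to 1.55 on the log2 scale. Emcn, the sialomucin endomucin of veins and capillaries, ran from 8.94 to 27.2 CPM in the Tcf4+/- group and from 1.24 to 15.2 CPM in the Col8a2 group. The sialomucin gene Cd34, also made by corneal stromal cells, ran from 38.0 to 97.8 and from 20.3 to 99.9 CPM, with a log2 fold change of 0.08.

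Secreted products of the vessel wall did not separate by genotype. Vwf, von Willebrand factor, stood at 5.87, 17.0 and 6.08 CPM in the Tcf4+/- libraries and 6.90, 16.9 and 0.0395 CPM in the Col8a2 libraries. Col8a2 replicate 3 thus held almost none, while Col8a2 replicate 2 came close to the highest Tcf4+/- library. Egfl7, an endothelial matrix protein whose gene also hosts microRNA-126, stood at 25.9, 56.9 and 35.0 CPM in the Tcf4+/- libraries and 33.7, 48.6 and 23.5 CPM in the Col8a2 libraries. Mmrn2, an endothelial matrix protein of the multimerin family, ran from 5.06 to 14.0 CPM in the Tcf4+/- group and from 0 to 5.84 CPM in the Col8a2 group.

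The transcription factors differed in how much they varied. Erg, an ETS factor that maintains endothelial identity, varied least between libraries of the 34 members, at 35.8, 45.1 and 57.5 CPM in the Tcf4+/- libraries and 39.3, 43.6 and 32.7 CPM in the Col8a2 libraries. The highest library held 1.76 times the lowest, and Col8a2 replicate 3 still held 32.7 CPM of Erg where Tie1, Sox18 and Robo4 were at 0. Sox18, an SRY-related factor of vessel and lymphatic development, stood at 2.73, 8.54 and 16.3 CPM in the Tcf4+/- libraries and 1.23, 3.67 and 0 CPM in the Col8a2 libraries, and its log2 fold change was 2.49 ± 1.46 (SE). Sox17, a related factor of arteries, was at 1.07 CPM in Tcf4+/- replicate 2 and 0 in the other Tcf4+/- libraries, and at 0.531, 0.0202 and 0 CPM in the Col8a2 libraries, and was not tested.

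Of the lymphatic members, Lyve1 gave the largest fitted change. Lyve1 (ENSMUSG00000030787), the hyaluronan receptor of lymphatic endothelium that some macrophages also carry, stood at 3.33, 2.07 and 0.371 CPM in the Tcf4+/- libraries and at 0, 0.0606 and 0 CPM in the Col8a2 libraries. It was thus seen in all 3 Tcf4+/- libraries, with 282 counts, and in 1 Col8a2 library, with 3 counts. Through those Tcf4+/- libraries alone it passed the filter on low counts, so its lack of overlap was set by the filter. The pooled counts gave a ratio of 105 with a 95% interval from 35.5 to 512 for counting error only. The log2 fold change of 6.39 had a 95% interval from 1.77 to 11.01, which takes in the spread between libraries, an unadjusted p of 0.0117 and an adjusted p of 0.9999 with edgeR. With DESeq2 it was the only member called, with an adjusted p of 0.027, where 0.463% of 22656 genes were called. Its 282 counts split as 157, 114 and 11 over Tcf4+/- replicates 1 to 3. Because nearly all its counts came from the group in which it was high, its ratio, intervals, p-values and DESeq2 call give no support. Its order over libraries differed from that of the summed blood endothelium members, with Tcf4+/- replicate 1 highest.

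Flt4, VEGF receptor 3 of lymphatic endothelium, stood at 1.42, 6.76 and 4.49 CPM in the Tcf4+/- libraries and 2.53, 3.39 and 0 CPM in the Col8a2 libraries. Mmrn1, a multimerin of lymphatic endothelium and platelets, was at 0.508, 2.40 and 0 CPM in the Tcf4+/- libraries and 0.191, 0 and 0 CPM in the Col8a2 libraries and was not tested, so these 2 genes did not share the order of Lyve1. Pdpn, podoplanin, which lymphatic endothelium shares with several stromal cell types, was abundant throughout at 132, 206 and 98.6 CPM in the Tcf4+/- libraries and 168, 226 and 164 CPM in the Col8a2 libraries. Its log2 fold change was -0.35 with a 95% interval from -1.10 to 0.40, and it stood at 164 CPM in Col8a2 replicate 3, where Lyve1 and Flt4 had 0 counts.

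Pericyte genes differed in how much they varied. Pdgfrb, the PDGF receptor of pericytes and fibroblasts, stood at 96.3, 101 and 53.0 CPM in the Tcf4+/- libraries and 82.9, 50.9 and 64.8 CPM in the Col8a2 libraries. Rgs5, a regulator of G protein signalling and a marker of pericytes, ran from 17.7 to 54.9 CPM in the Tcf4+/- group and stood at 33.0, 41.1 and 0.494 CPM in the Col8a2 libraries. Rgs5 was nearly absent from Col8a2 replicate 3, the library with the lowest sum of blood endothelium members, where Pdgfrb was at 64.8 CPM. Cspg4, the NG2 proteoglycan, showed the same gap, with 5.66, 10.5 and 8.57 CPM in the Tcf4+/- libraries and 9.49, 4.89 and 0.119 CPM in the Col8a2 libraries. Notch3, the Notch receptor of mural cells, was closer between libraries, at 4.28 to 8.64 CPM in the Tcf4+/- group and 3.14 to 8.33 CPM in the Col8a2 group.

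Kcnj8 and Abcc9 encode the pore and the regulatory subunit of the ATP-sensitive potassium channel of vascular mural cells, and both lie on chromosome 6. Kcnj8 (ENSMUSG00000030247) was at 0, 1.80 and 0 CPM in the Tcf4+/- libraries and 4.69, 3.33 and 1.86 CPM in the Col8a2 libraries, the only member lower without overlap. The gap between 1.80 and 1.86 CPM was narrow, and its log2 fold change was -2.44 with a 95% interval from -6.78 to 1.89. Abcc9 ran from 0.0847 to 1.42 CPM in the Tcf4+/- group and from 0.464 to 1.88 CPM in the Col8a2 group, and its highest library was Col8a2 replicate 3. Higd1b, a pericyte marker of the hypoxia-inducible domain family, stayed below 1 CPM in every library.

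The other genes of vessels did not pass either. Of 81 genes in 4 further lists, 75 were tested, 41 were fitted higher and 34 lower, 0 were called by edgeR, and the median log2 fold change was 0.09. Among 27 tested genes of blood endothelium outside the members, 15 were highest in Tcf4+/- replicate 2 (55.6%, against 13.8% of all genes tested). Lowest in Col8a2 replicate 3 were 10 (37.0%, against 19.0%), and 9 were lowest in Tcf4+/- replicate 3 (33.3%, against 25.0%). This list summed lowest in Tcf4+/- replicate 3, at 315 CPM, with 552 CPM in Col8a2 replicate 3. All 81 genes also summed lowest in Tcf4+/- replicate 3, at 2938 CPM. The median log2 fold change of the 27 was 0.38. Nrp1 and Eng, the coreceptors of VEGF and of TGF-beta family ligands, had the highest mean counts, at 219 ± 82.0 and 65.0 ± 21.3 CPM in the Tcf4+/- group and 246 ± 43.2 and 71.0 ± 16.1 CPM in the Col8a2 group (SD, n = 3 each). Selp, P-selectin of platelets and activated endothelium, had 63 counts in the Tcf4+/- group and 2 in the Col8a2 group, a ratio of 35.2 with a 95% interval from 9.34 to 297 for counting error only, and did not pass (edgeR adjusted p = 0.9999). Adgrf5, an adhesion G protein-coupled receptor of endothelium, stood at 15.5, 18.2 and 4.86 CPM in the Tcf4+/- libraries and 22.0, 24.5 and 26.9 CPM in the Col8a2 libraries. Adgrf5 was the 1 gene of the 75 lower without overlap, and its log2 fold change of -0.93 had a 95% interval from -2.04 to 0.19. Of the 75, 3 were higher without overlap (Selp, S1pr1 and Cnn1). Over all genes tested, 4.53% were higher and 3.57% lower without overlap, so neither count was a larger share than that. Selp passed the filter on low counts through its Tcf4+/- libraries alone, so its lack of overlap was set by the filter. S1pr1, a sphingosine-1-phosphate receptor, ran from 5.57 to 11.8 CPM in the Tcf4+/- group and from 1.68 to 5.51 CPM in the Col8a2 group.

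Angiogenic ligands and inhibitors, 21 tested of 22, were fitted higher in 8 cases and lower in 13, around a median of -0.06 on the log2 scale. The inhibitors Serpinf1 and Thbs1 had the highest mean counts, at 885 ± 500.0 and 742 ± 412 CPM in the Tcf4+/- group and 762 ± 326 and 776 ± 179 CPM in the Col8a2 group (SD, n = 3 each). Angptl4 and Col18a1, which encodes the collagen that gives rise to endostatin, had the smallest p in this list and log2 fold changes of -1.18 and -1.09. Vash1 had 0 counts in every library.

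Further lymphatic genes, 9 of 9 tested, had a median of 0.28. Stab1, a scavenger receptor of sinusoidal and lymphatic endothelium and of macrophages, stood at 5.93, 19.6 and 23.6 CPM in the Tcf4+/- libraries and 6.65, 5.90 and 3.08 CPM in the Col8a2 libraries and had a log2 fold change of 1.65, which did not pass in edgeR (adjusted p = 0.9999). Itga9, an integrin of lymphatic valves, had a log2 fold change of 1.28, and Nrp2 and Reln, with the highest mean counts of the list, had -0.23 and -0.68. Further mural cell genes, 18 tested of 20, had a median of 0.14, with 11 fitted higher and 7 lower. The muscle genes Des and Tagln had the smallest p, with log2 fold changes of 1.36 and 0.66, and Myl9 and Acta2 had the highest mean counts and log2 fold changes of 0.24 and 0.01. The summed mural list ran from 647 to 757 CPM in the Tcf4+/- group and from 538 to 669 CPM in the Col8a2 group. It was highest in Tcf4+/- replicate 3 and lowest in Col8a2 replicate 2, with 651 CPM in Col8a2 replicate 3. This order differed from that of the summed pericyte members.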

How the data were processed

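Per the submitters' processing notes, the authors' pipeline named FastQC 0.12.1, fastp 0.23.2, STAR, RSEM, DESeq2 and the GRCm39 build; for STAR, RSEM, DESeq2 and the annotation, versions are not given in the sources used. Per the labels' protocols, full-length cDNA was made with a SMART-Seq kit. The deposited files give, per gene and library, RSEM's expected count, an estimate that need not be whole, and TPM, scaled by the authors to transcript length and library. Ensembl identifiers were matched to symbols for 51884 of 57180.

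Expected counts were rounded and tested with edgeR 4.0.16 (filterByExpr, TMM, robust quasi-likelihood F-test, R 4.3.3), with a group term and Benjamini-Hochberg adjustment over 17639 genes at a threshold of 0.05. The script was tested on simulated data. CPM are TMM-scaled, the common biological coefficient of variation came to 0.744, and library totals ran from 30344114 to 54265433. Alternatives used DESeq2 1.42.0, limma 3.58.1, other scalings and filters, log2(TPM + 0.5), a sex covariate (1 library in each group carries the Y-linked pattern), a replicate term and left-out libraries. An exact permutation test of 3 against 3 cannot go below p = 0.1 and was not used. In Tcf4+/- replicates 2 and 3, mitochondrial tRNAs took 15.6% and 15.8% of TPM, which lowers the TPM of other genes there, and 0% in the other libraries.

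The members and lists were chosen with earlier results of these data known. All 34 members are named, and of each further vessel list the genes past the threshold, or else the 2 of smallest p, and the 2 of highest mean CPM; Vash1, S1pr1, Cnn1, Ppbp, Itga2b, Gp1bb and marker genes at or near 0 were named after their values were seen. Promoter windows were read from RefSeq tables of GRCm38.p6 and exon overlaps from GENCODE M21, and neither build's coordinates were joined to the files. Intervals for counts and floors (3 counts) cover counting error only, since amplified reads are not independent molecules.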

Additional observations from a re-analysis of the deposited data

How the results depend on the processing

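Over 16 alternatives, 442 of 486 member values kept their sign and their side of the threshold, 43 values of 17 members turned sign, and Lyve1 became called with DESeq2 (log2 fold change 6.56). DESeq2 called 105 genes (74 higher, 31 lower), 1 of them a member. Leaving out 1 library gave 0 to 4 called genes, with 4 without Col8a2 replicate 3, and 0 called members. The other alternatives called 0 genes, where 261 to 1212 had an unadjusted p under 0.05. The labels used here do not say whether the replicate numbers pair the samples. Correlations of same-numbered libraries were -0.0237, 0.139 and -0.0154, and those of other pairs ran from -0.0851 to 0.0891. With 3 libraries per group, these cannot decide it. With a replicate block, edgeR called 0 genes and 432 had an unadjusted p under 0.05. Medians then stood at 0.97 (log2) over the members, 1.35 over blood endothelium and 0.45 over pericyte genes. With limma voom, which used no replicate term, they were 1.03, 1.37 and 0.41, beside 0.33, 0.82 and 0.31 in the main fit. Log2 TPM moved the median of all genes to -0.19.

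Without both lens-rich Tcf4+/- libraries the medians were -0.45 over the members, -0.44 over blood endothelium and -0.45 over pericyte genes, and the lone Tcf4+/- library was assumed to vary like the Col8a2 libraries. There, the sign turned for Pecam1 (-0.93), Cldn5 (-0.54), Plvap (-0.43), Tek (-1.02), Tie1 (-0.56), Egfl7 (-0.46), Vwf (-0.44), Esam (-2.47), Erg (-0.11), Robo4 (-7.88, with 0 counts in the lone library, so set by the prior count), Cd34 (-0.20), Flt4 (-0.48), Rgs5 (-0.45), Notch3 (-0.31), Higd1b (-1.51) and Apln (0.12). Signs also turned with limma voom for Tek (-0.02) and Esam (-0.07), on log2 TPM for Tek (-0.38), Egfl7 (-0.18), Vwf (-0.11), Esam (-0.35) and Notch3 (-0.04), and with the replicate block for Tek (-0.11) and Esam (-0.22). With 1 library left out, the log2 fold change ran from -1.48 to 0.22 for Flt1, -0.72 to 0.39 for Tek, -0.20 to 0.46 for Egfl7, -0.40 to 1.47 for Vwf, -1.90 to 1.55 for Esam, -0.39 to 0.69 for Cd34, -0.45 to 0.86 for Rgs5 and -0.28 to 7.13 for Higd1b. The summed level of the members was -0.16 on the log2 scale and ran from -0.59 to 0.09 with 1 library left out. The causes of these changes were not tested. Depth limits the members at 0 counts, where 3 counts is the smallest level that could be told from 0.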
